A study of Homo sapiens with 5 samples.

Results

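The mitosis genes were followed as a module of 57 genes, which encode mitotic kinases and their regulators, spindle checkpoint and kinetochore proteins, motors, condensins and cytokinesis factors. The genes were listed by function and kept if each of the 3 deposited tables held them. All 57 met this rule, out of 10976 genes that the tables share. The tables come from HLF cells, an established line of hepatocellular carcinoma, grown with no drug treatment listed, in 5 conditions with 1 listed sample each. USP28-Ctrl cells carried a control guide RNA (sgCtrl) and USP28-KO cells a guide RNA against USP28 (sgUsp28), a deubiquitinase that acts on MYC. The other conditions all started from sgUsp28 cells and carried the empty lentiviral vector pRRL-Ctrl, the vector with wildtype USP28 (pRRL-Usp28-WT, USP28-WT) or the vector with a USP28 that does not dimerize (pRRL-Usp28-Mono, USP28-M). According to the methods of the study, knockout cells were grown from single clones, so that a property of a clone and the loss of USP28 cannot be told apart. The methods also state that lentiviral transduction was followed by antibiotic selection, and only the conditions with a vector carry a lentiviral vector in their labels.

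Mitosis is driven by CDK1 bound to cyclin B, which is activated by CDC25 phosphatases and followed by the Polo and Aurora kinases. Kinetochores then attach chromosomes to spindle microtubules, and the spindle checkpoint holds back CDC20 and the anaphase-promoting complex until all are attached. Most genes for these steps are transcribed in G2 and M phase, so that their mRNA level in a culture follows the share of cycling cells.

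For each gene the tables hold an average log2 CPM (counts scaled to the library total, on a log2 scale), which the authors computed over all libraries of a comparison. One average covers USP28-Ctrl and USP28-KO together (the control and knockout libraries). The other covers vector, USP28-WT and USP28-M together (the re-expression libraries), and both re-expression tables list the same value for every gene. Columns that compare conditions were not used, so the values below are levels in HLF cells averaged over conditions, and no effect of USP28 is given. The number of libraries behind an average was not given in the sources used here, and an average has no replicate error. The tables list 11102 and 12342 genes. The values of the lowest 1110 genes of the control and knockout libraries lay in steps of 0.130 CPM, to within 0.1 of a step for 96.6% of them, and 1 step may be 1 read over all these libraries. For the lowest 1234 genes of the re-expression libraries the step was smaller, 0.0329 CPM, which would be a larger read total, but it held for only 64.9% and is less certain. Depth per library is unknown. As averages over conditions, the listed levels of USP28 itself were a log2 CPM of 5.15 in the control and knockout libraries and of 9.79 in the re-expression libraries, and such averages do not check the labels of single samples.

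The line was compared with its label by marker genes. Among the hepatocyte markers, FGB was listed for both groups of libraries and SERPINA1 for the re-expression libraries, and ALB, APOA1, TTR, AFP and HNF4A were listed in neither. All 5 mesenchymal markers were listed in both, from VIM at a log2 CPM of 11.71 and 11.69 down to ZEB1 at 4.31 and 3.49. The epithelial keratins KRT8 (11.18 and 12.02) and KRT18 (10.66 and 11.21) were listed at high levels too, and CDH1, EPCAM and KRT19 were not listed. Of the 5 markers of fibroblasts and blood cells, COL1A1, PDGFRB and CD68 were listed and PTPRC and CD3E were not.

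Promoters of the mitosis genes shared short sequence motifs that the choice of the genes did not use. RefSeq promoters (assembly GRCh38.p14, 250 bases before to 50 after the first listed start) were found for 49 of the 57 genes, and both strands were searched. AURKA, BIRC5, BUB3, FOXM1, RACGAP1, TPX2, TTK and UBE2C had none in the table. TTTGAA, the letters of the cell cycle genes homology region (CHR), a known element of genes transcribed in G2 and M phase, stood in 34 of 49 promoters (69.4%). Over all 27305 promoters the share was 15.4%. CCAAT, the box that NF-Y is known to bind, stood in 36 of the 49 promoters (73.5%) and in 35.7% of all promoters. Both motifs together were found in 27 of 49 (55.1%) against 6.08%, and CCAAT stood at 2 or more places in 23 of 49 (46.9%) against 11.3%. HMMR, a spindle protein gene, had the most CCAAT matches (5), but those centred at -66.5 and -63.5 overlap on opposite strands. ASPM, CCNB2, CENPF, NCAPD2 and TOP2A had 4 each.

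Positions of matches were taken in the mitosis gene promoters only, so that no share by position over all promoters stands beside them. From 150 bases before to 50 after the start, TTTGAA stood in 63.3% of the 49 promoters and in 9.57% of all promoters. CCAAT stood there in 69.4% and in 27.5%. Of 44 TTTGAA matches, 29 had their centre within 50 bases of the start, in 26 genes, and the median position was 25.5 bases before it (position -25.5). Of 78 CCAAT matches, 48 lay between 25 and 100 bases before the start, in 30 genes, with a median position of -71. Only 2 pairs of matches of different motifs overlapped. The E2F letters TTTCGCGC or TTTGGCGC were found in only 2 promoters, those of CDK1 and NUSAP1 (4.08% against 1.18%). They stood in 2.29% of the promoters of the shared genes. From 150 bases before to 50 after the start they were found in 1 of the 49 (2.04%) and in 0.864% of all promoters. The E-box CACGTG, a sequence that MYC is known to bind, was found in 6 (12.2% against 7.43%), those of ANLN, CCNB1, CENPE, CENPF, MYBL2 and PLK1. It stood in 10.7% of the promoters of the shared genes, and from 150 bases before to 50 after the start it was less common in the mitosis genes (4.08%) than in all promoters (5.66%). Of the 49 promoters, those of CDC25B, CDC25C, CENPE, CKAP2, KIF2C and MYBL2 held neither TTTGAA nor CCAAT in this window, which says only that these letters are not in it.

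The letters of the CHR and their surroundings are shown for 6 genes. All have TTTGAA on the strand of the gene between 150 bases before and 50 after the start. Of such genes, these 6 have the highest level per transcript length in the control and knockout libraries. TOP2A and CDK1, which rank above PLK1, had TTTGAA on the strand of the gene only further upstream, with centres at -191 and -158. Capitals mark the TTTGAA. The sequences are 30 bases each of RefSeq, assembly GRCh38.p14, and are printed 5′ to 3′ on the strand of the gene. The CDC20 window lies at chr1:43358904-43358933 (plus strand) and that of ANLN at chr7:36389830-36389859 (plus). The PLK1 window lies at chr16:23678848-23678877 (plus) and that of NUSAP1 at chr15:41332882-41332911 (plus). NCAPD2 is shown at chr12:6493945-6493974 (plus) and CDCA8 at chr1:37692481-37692510 (plus).
CDC20: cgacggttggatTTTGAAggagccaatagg
ANLN: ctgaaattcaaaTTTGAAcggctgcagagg
PLK1: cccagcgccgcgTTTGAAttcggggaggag
NUSAP1: tggcgccagggaTTTGAAccgcgctgacga
NCAPD2: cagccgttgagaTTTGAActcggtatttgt
CDCA8: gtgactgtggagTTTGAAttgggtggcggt
The first base of the TTTGAA lay at position -65 in CDC20, -20 in ANLN, -29 in PLK1, 13 in NUSAP1, -145 in NCAPD2 and -23 in CDCA8.

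Transcripts of the mitosis genes were abundant in HLF cells. Levels of different genes were compared per transcript length, as CPM per kb of the principal transcript in GENCODE release 29. The median mitosis gene stood at a log2 CPM per kb of 5.43 in the control and knockout libraries, at percentile 82.9 of all genes with a length in that table, and at 4.91 in the re-expression libraries (percentile 78.6). Of the 57 genes, 53 were above the median of all listed genes per length in the former and 51 in the latter. The summed level was 11582 CPM in the control and knockout libraries and 8873 CPM in the re-expression libraries. The 5 highest per length in the control and knockout libraries were UBE2C, TPX2, CDC20, TOP2A and CCNB1, at 372, 185, 172, 156 and 146 CPM per kb. The 5 lowest were ASPM, CENPE, CDC25C, MAD2L1 and SPC24, at 15.5, 12.1, 12.03, 11.6 and 8.92 CPM per kb. The order depended on the length used. Per coding length CDK1 and BUB3 were among the 5 highest in place of CDC20 and TOP2A, and KIF18A and SMC2 among the 5 lowest in place of MAD2L1 and SPC24. MAD2L1 has a transcript of 5468 bases with a coding part of 615 bases, and per coding length it was above the median of the module (log2 CPM per kb of 6.69 against 6.17). TPX2 (219 CPM per kb), UBE2C (200.1), CDC20 (199.7), CDC25B (167) and CCNB1 (152) were highest in the re-expression libraries. With no replicate error, neighbours in this order cannot be told apart.

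**Figure D1:**
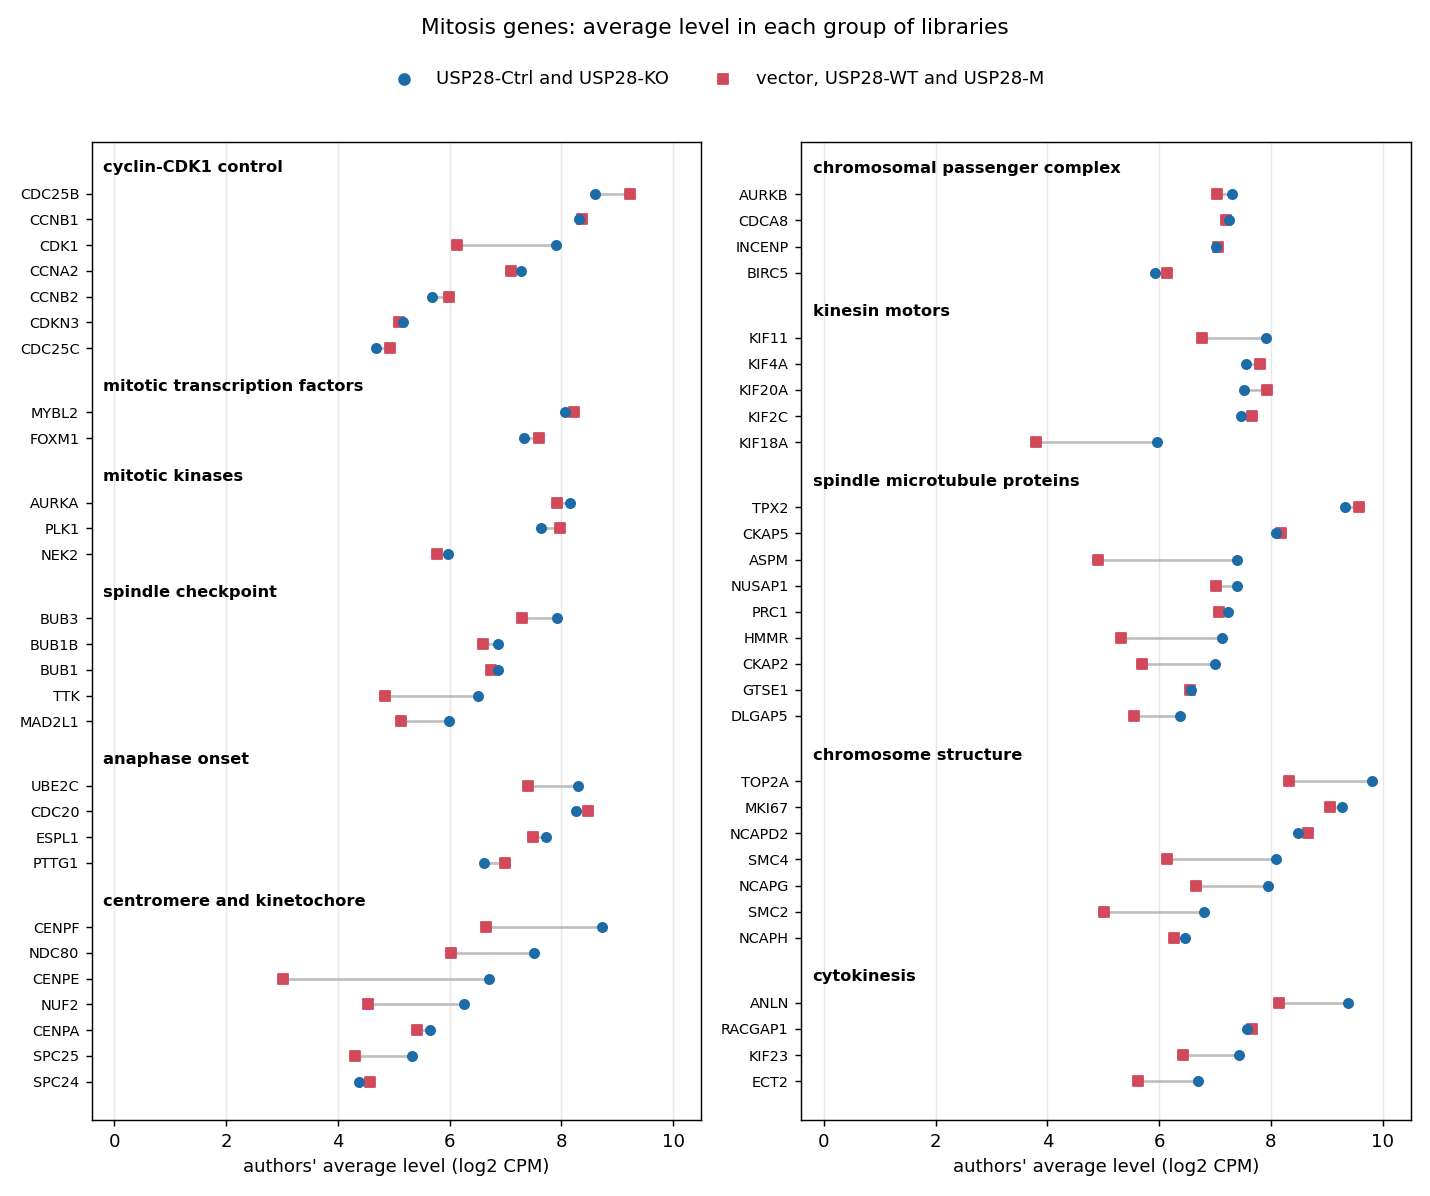
Average level of each mitosis gene in log2 CPM, grouped by role, in the control and knockout libraries (blue circles) and the re-expression libraries (red squares), which the authors normalized separately. Grey lines join both values of a gene. CENPE has the longest line, from 6.70 to 3.03, while CCNB1 (8.31 and 8.36) and most cyclin, kinase and passenger genes have short ones.

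Genes that control entry into mitosis ranged widely in level, with CCNB1 and CDC25B among the 10 highest of the module per length in both groups of libraries and CDC25C among the 5 lowest in the control and knockout libraries. In the control and knockout libraries CCNB1, the main mitotic cyclin, had an average log2 CPM of 8.31, CCNA2 of 7.28 and CCNB2 of 5.69, and in the re-expression libraries these were 8.36, 7.11 and 5.99. CDK1, the kinase these cyclins activate, was at 7.90 and at 6.13. Per length, CCNB1 stood above CCNB2 in both, at 146 against 33.1 and at 152 against 40.9 CPM per kb. CDC25B and CDC25C, phosphatases that remove inhibitory phosphates from CDK1, were at 108 and 12.03 CPM per kb in the control and knockout libraries, and at 167 and 14.4 in the re-expression libraries. CDKN3, a phosphatase that acts on CDKs, had a log2 CPM of 5.16 and 5.09. The transcription factor genes MYBL2 and FOXM1, whose products activate G2 and M phase genes, were at a log2 CPM of 8.06 and 7.34 and in the re-expression libraries at 8.22 and 7.61.

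Among the kinases, AURKA, which acts at spindle poles, had a log2 CPM of 8.16 and 7.92, PLK1, which acts at centrosomes and kinetochores, of 7.64 and 7.98, and NEK2, which acts in centrosome separation, of 5.97 and 5.77, each for control and knockout and then for re-expression libraries. TPX2, the activator of AURKA on spindles, was at 9.33 and 9.58. The checkpoint genes BUB1, BUB1B and BUB3 were at 6.87, 6.87 and 7.92 in the control and knockout libraries and at 6.73, 6.60 and 7.30 in the re-expression libraries. TTK, the kinase that starts the checkpoint signal, was at 6.51 and 4.84, and MAD2L1, which binds CDC20, at 5.99 and 5.13. All 5 checkpoint genes were lower in the re-expression libraries, as were 59.9% of all shared genes. Relative to the median difference of all shared genes, BUB1 and BUB1B differed by -0.01 and -0.15, and BUB3, MAD2L1 and TTK by -0.51, -0.74 and -1.55. Of the genes for anaphase onset, CDC20 was at 8.25 and 8.47, UBE2C, the ubiquitin-conjugating enzyme of the anaphase-promoting complex, at 8.31 and 7.41, ESPL1 (separase) at 7.72 and 7.499 and PTTG1 (securin) at 6.62 and 6.99. Reads of PTTG1 may be shared with its retrogene PTTG2, so that this level is uncertain.

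Subunits of a complex differed in level per length, and the spread depended on the libraries. In the NDC80 complex, which couples kinetochores to microtubules, NDC80, NUF2, SPC25 and SPC24 had 84.1, 38.7, 29.7 and 8.92 CPM per kb in the control and knockout libraries, a 9.43-fold range. In the re-expression libraries these were 29.9, 11.9, 14.7 and 10.2 CPM per kb, a 2.92-fold range. NDC80 was the highest in both. With coding length in place of transcript length, the first range was 2.71-fold, and in the re-expression libraries SPC24 (log2 CPM per kb of 5.33) stood above NDC80 (5.07).

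In condensin I, which compacts chromosomes, NCAPD2, NCAPG, SMC4, NCAPH and SMC2 had 64.5, 53.0, 49.8, 29.9 and 18.7 CPM per kb in the control and knockout libraries, a 3.46-fold range. In the re-expression libraries they had 73.6, 21.6, 12.9, 26.2 and 5.40 CPM per kb, a 13.6-fold range. NCAPD2 was thus the highest and SMC2 the lowest in both, while NCAPG and SMC4 stood above NCAPH in the control and knockout libraries and below it in the re-expression libraries. In the chromosomal passenger complex, which corrects faulty attachments, the order per transcript length was the same in both. AURKB, CDCA8, INCENP and BIRC5 had 126, 61.4, 32.6 and 23.03 CPM per kb, and in the re-expression libraries 104, 59.6, 33.7 and 26.9. Per coding length CDCA8 was the highest and INCENP the lowest in both, and BIRC5 stood below AURKB in the control and knockout libraries (log2 CPM per kb of 7.15 and 7.25) and above it in the re-expression libraries (7.38 and 6.98). In centralspindlin, which bundles the midzone, RACGAP1 and KIF23 had 58.9 and 46.4 CPM per kb, and in the re-expression libraries 62.9 and 23.03.

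The level of many mitosis genes differed between the library groups, and the difference went with the base composition of the transcript. Of the 57 genes, 38 (66.7%) had a lower average log2 CPM in the re-expression libraries than in the control and knockout libraries, against 59.8% of the other 10919 shared genes. The median difference, re-expression minus control and knockout, was -0.22 for the mitosis genes and -0.12 for the other genes. A difference below -1 on the log2 scale was found for 19 mitosis genes (33.3%) and for 8.89% of the others. No mitosis gene had a difference above 1, and only 1.53% of the others did. The tables were normalized separately and the libraries differ in their conditions, so this was not tested.

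The lower levels were mostly those of genes whose transcript has a low GC content. When the 10684 shared genes with a known transcript were divided into 5 equal groups by GC content, 20 of the 57 mitosis genes (35.1%) fell into the lowest, up to 40.8% GC. All 20 were lower in the re-expression libraries, with differences from -3.68 to -0.82 and a median of -1.58. The 2117 other genes of this group had a median of -0.65 and quartiles of -1.03 and -0.34, so that most of them were lower as well. A difference below -1 was found for 18 of the 20 mitosis genes and for 26.9% of these other genes. Of these other genes, 6.47% were below the median of the mitosis genes. All 20 mitosis genes lay below the median of the other genes. The remaining 37 mitosis genes had a median of 0.05, with 18 lower and 19 higher. Across the 57 genes the difference had a Spearman's rho of 0.80 (Pearson's r 0.74) with GC content and of -0.34 with transcript length. Across the 10684 genes rho was 0.48 with GC content and -0.01 with length, and genes of a table share libraries and normalization.

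**Figure D2:**
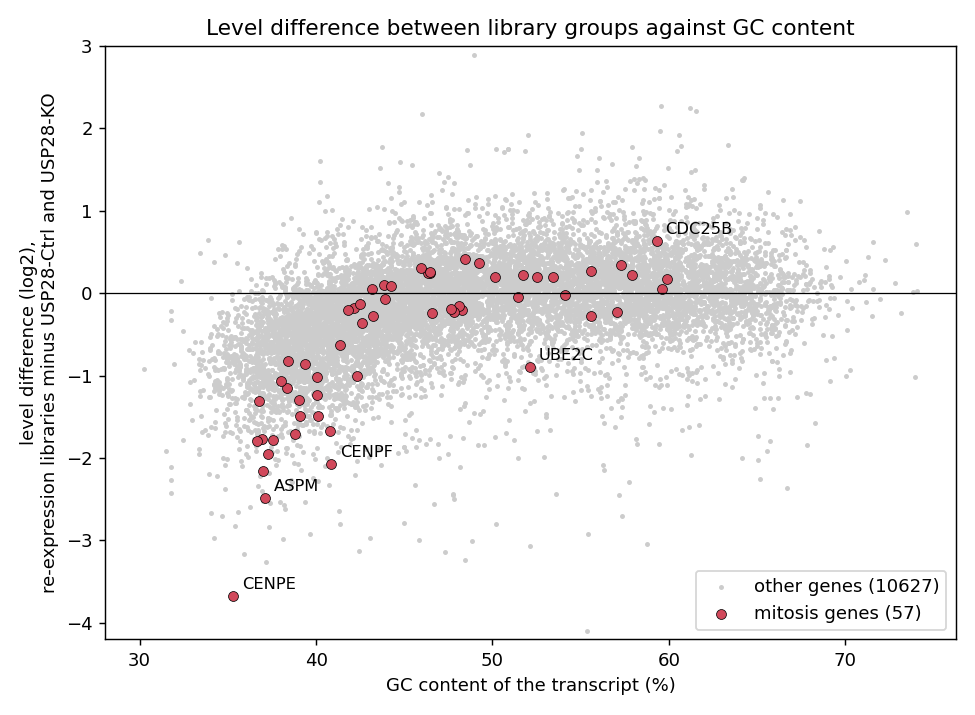
Difference of the average log2 CPM, re-expression libraries minus control and knockout libraries, against GC content of the transcript in percent, for 57 mitosis genes (red) and 10627 other genes (grey, 4 of them outside the range shown). The 20 mitosis genes with the lowest GC content lie between -3.68 and -0.82, and CENPE is the lowest of the module.

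The largest differences were in CENPE, ASPM and KIF18A. CENPE, the kinetochore kinesin that moves chromosomes to the metaphase plate, had 104 CPM in the control and knockout libraries and 8.14 CPM in the re-expression libraries, 12.8-fold less, with a GC content of 35.3%. ASPM, a spindle pole protein, had 169 and 30.1 CPM (37.1% GC), and KIF18A, a kinesin that restrains chromosome movement, 62.3 and 13.9 CPM (37.0% GC). CENPF, a kinetochore and nuclear matrix protein, followed with 426 and 101 CPM (40.8% GC). CDK1 had 238 and 70.2 CPM (37.0% GC), TOP2A, the topoisomerase that untangles sister chromatids, 898 and 320 CPM (39.1% GC), and SMC4 272 and 70.7 CPM (37.3% GC).

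At the other end, CDC25B (388 and 601 CPM, 59.3% GC), KIF20A (183 and 243 CPM, 48.4% GC) and PTTG1 (98.1 and 127 CPM, 49.3% GC) had the largest differences upward, 0.63, 0.41 and 0.37 on the log2 scale. MKI67, the common proliferation marker, differed by -0.21 (618 and 536 CPM), with a GC content of 48.3% and the longest transcript of the module, 12678 bases. UBE2C had the lowest difference among the 26 mitosis genes of the 3 groups with higher GC content, at -0.90, with 316 and 170 CPM and a GC content of 52.1%.

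The difference varied between roles, whose genes also differ in composition. Of all shared genes, 59.9% were lower in the re-expression libraries and 9.02% were lower by more than 1 on the log2 scale. Genes outside the module in the group with the lowest GC content had an upper quartile of -0.34. In the next group, 40.8% to 45.4% GC, their quartiles were -0.57 and 0.01. All but SPC24 of the 7 centromere and kinetochore genes were lower in the re-expression libraries, with a median difference of -1.49 and a median GC content of 40.1%. Of 7 genes for chromosome structure 6 were lower (median -1.29, 39.1% GC), NCAPD2 being the exception. Among 4 cytokinesis genes ANLN, KIF23 and ECT2 were lower by more than 1 on the log2 scale, with differences of -1.24, -1.01 and -1.07, and RACGAP1 differed by 0.10. The 4 passenger genes had a median difference of 0.003 and a median GC content of 53.7%. Kinesin motors were split, with KIF11 and KIF18A at -1.15 and -2.16 and KIF20A, KIF2C and KIF4A at 0.41, 0.20 and 0.25. Among the spindle microtubule proteins HMMR, CKAP2 and DLGAP5 were at -1.80, -1.31 and -0.82, and NUSAP1, PRC1, GTSE1 and CKAP5 at -0.37, -0.16, -0.03 and 0.09.

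Other genes of mitosis that are not in the module were listed as well. All 16 genes of the anaphase-promoting complex and its partners, 12 of 12 of cohesin and its regulators, 3 of 3 of condensin II, 6 of 6 other mitotic kinesins and 7 of 7 other kinases and regulators were in each table. Of 30 other kinetochore genes 29 were, and CENPP was listed only for the re-expression libraries. The median difference was -0.16 for the anaphase-promoting complex, -0.80 for cohesin, -0.62 for the other kinetochore genes and -0.95 for the other kinesins. It was -0.23 for condensin II and -0.48 for the other kinases and regulators. All 12 cohesin genes and all 6 other kinesins were lower in the re-expression libraries, as were 28 of the 29 kinetochore genes. Lower too were 11 of 16 genes of the anaphase-promoting complex, 2 of 3 of condensin II and 6 of 7 other kinases and regulators. Of all shared genes, 59.9% were lower. The median GC content was 40.5% for the cohesin list and 41.9% for the other kinetochore genes. In the group with the lowest GC content, up to 40.8%, genes outside the module had an upper quartile of -0.34. The median GC content of the other kinetochore genes falls in the next group, up to 45.4%. Genes outside the module had a median difference of -0.26 there, with quartiles of -0.57 and 0.01. The other kinesins spanned 34.2% to 58.4%, and their differences were -2.97, -1.88 and -1.41 for KIF20B, KIF14 and KIF15 and -0.50, -0.19 and -0.05 for KIF18B, KIFC1 and KIF22. KIF20B had a log2 CPM of 6.98 and 4.01, and SGO2, the protector of centromeric cohesion, had a difference of -2.70.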

How the data were processed

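Total RNA of HLF cells was sequenced by the authors in 5 conditions. Libraries were made with a NEBNext Ultra kit, named with and without II in the sources, and the submitters' processing notes name bcl2fastq 2.20, STAR 2.5.4, edgeR 3.26.8 and the build hg19. The counting, the annotation, the filter on low genes and the number of libraries were not given in the sources used here. The authors deposited 3 tables of comparisons with log2 values per gene. The only column used was the average log2 CPM, which the authors' edgeR computed over the libraries of a comparison after their own filter and normalization. The log2 fold change, F, p and adjusted p columns hold the authors' comparisons and were not used. In 1 table the header begins 1 cell early, and the level was read from the cell between the fold change and the p-value. The re-expression tables have the same level for every gene (largest gap 0).

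No per-sample values were analysed (0 columns without a matched sample), so no difference between conditions and no replicate error was computed. The mitosis genes and the other lists were chosen with earlier results of these data known. Named are the subunits of complexes, the highest and lowest genes and the 3 largest differences in each direction, and other members beside them to describe a role. SGO2 and the other kinesins, which are not members, were named after their values were seen. The result of 1 hepatocyte marker is not reported here.

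Gene IDs were matched to GENCODE release 29. The principal transcript gave length and GC content for 97.1% of the genes of the control and knockout table, 95.9% of those of the re-expression tables and all 57 members, and the level per kb is the log2 CPM minus the log2 of the length in kb. Coding length was the alternative. As the files were made with hg19, coordinates are given only for the RefSeq promoters, on their own assembly. Of the 49 members with a promoter, 8 had more than 1 listed start, and the first was used. A planned search of the protein sequences was not run, because it needs sequences not used here. Percentile and length steps were checked on simulated data. Scripts ran on Python 3.11.15, with tables in pandas 2.3.3 and numpy 2.4.6, correlations in scipy 1.17.1 and plots in matplotlib 3.10.9.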

Additional observations from a re-analysis of the deposited data

How the results depend on the processing

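Of 40 values recomputed under an alternative, 30 stayed close to the reported one, within 1.5-fold for levels, ranges and counts and within 5 percentage points for percentiles and shares. Some of these could hardly move. CACGTG reads the same on both strands, so its share on the strand of the gene was fixed. The tolerances exceed the median difference between the library groups (-0.22) and the excess of the E2F letters (2.90 points) and the E-box (4.81 points). For these even a loss would count as close. Coding length in place of transcript length raised the median level per kb of the mitosis genes to 6.17 in the control and knockout libraries and 5.78 in the re-expression libraries, by construction, since coding parts are shorter. It changed the range of the NDC80 complex to 2.71-fold in the control and knockout libraries. The range over BUB1B, BUB3, MAD2L1 and CDC20 was 14.8-fold and 31.2-fold with transcript length and 6.65-fold and 7.72-fold with coding length. The median mitosis gene stood at percentile 88.5 by CPM and 82.9 per transcript length in the control and knockout libraries. On the strand of the gene alone, the share of promoters exceeded that of all promoters by 24.1 percentage points for CCAAT and 44.6 for TTTGAA, and against promoters of the shared genes the excess for TTTGAA was 60.01. In the 150 bases before to 50 after the start, the E-box CACGTG was less common than in all promoters, by a difference of -1.58 percentage points, against 4.81 in the whole window. Counting a motif at any listed start, an alternative chosen after seeing the data, moved no share by that much. The difference between the library groups kept its sign when centred on all shared genes (median -0.10, 35 of 57 genes lower). By construction, centring puts as many of all shared genes below as above. In the 49 genes with a log2 CPM of at least 5 in both, the median was -0.20 and 32 were lower. This filter left out CENPE, ASPM, KIF18A, TTK, NUF2 and SPC25, all lower by more than 1, and CDC25C and SPC24, which were higher. A share over all genes was not taken with it.

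Averages over conditions without libraries allow no test, and leaving out a replicate was not possible. No paired analysis was possible because the tables carry no values of single samples. Whether the pattern with GC content comes from library preparation, sequencing, normalization or the cells was not tested.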
